A study of Mus musculus with 4 samples.

Results

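The genes described here are 8 integrin chains and 1 integrin ligand that hold CD8+ T cells in tissue or to other cells: Itgae, Itga1, Itga4, Itgal and Itgax (alpha chains), Itgb1, Itgb7 and Itgb2 (beta chains) and Cdh1 (E-cadherin). They were chosen by name, and each of the 9 matched 1 of the 31253 genes listed in all 4 libraries. The libraries are droplet-based single-cell RNA counts of CD45+ CD8+ cells sorted from tumours of MB49, a mouse bladder carcinoma line, with 3 mice pooled in each. Subcutaneous tumours of C57BL/6Slac mice, 10 to 12 weeks old, gave the WT and KO cells, and the submitters name the mice WT or BFAR-CD8-KO. Tumours of Rag1-/- hosts, 8 to 10 weeks old and lacking mature T and B cells, gave the Young and Aged cells. On the day of tumour inoculation each host was given CD8+ T cells intravenously, from donors of 8 weeks (Young) or of 18 months (Aged). The labels write the host strain as B6.129S7-Rag1tm0Mom/J for Young and as B6.129S7-Rag1tm1Mom/J for Aged. The sources used here do not name the strain that deletes Bfar in the KO mice or the strain of the donors. Each group holds 1 library, so no spread between mice could be measured, no test between groups was possible, and every interval below is a 95% interval of counting error only.

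Integrins are paired surface receptors of 1 alpha and 1 beta chain, and a cell needs both chains to place the receptor on its membrane. The αE chain (Itgae, CD103) pairs with β7 and binds E-cadherin on epithelium, and T cells that stay in barrier tissue and in tumours are known for it. The α1 chain (Itga1, CD49a) pairs with β1 and binds collagen. The α4 chain (Itga4, CD49d) pairs with β1, which makes VLA-4, a receptor for VCAM-1 and fibronectin, or with β7, which makes a receptor for MAdCAM-1 that guides cells to the gut. The αL chain (Itgal, CD11a) and the αX chain (Itgax, CD11c) pair with β2 (Itgb2, CD18). LFA-1, the αL and β2 pair, binds ICAM-1 at the contact between a T cell and its target. Itgae and Itgax are also used as markers of dendritic cells.

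Itga4 is shown with its promoter because it was the chain furthest above Young in Aged, and Itgb1 and Itgb7 because their levels moved together across cell states. The 250 bases before each start come from RefSeq (GRCm38.p6), which held entries for Itga1, Itga4, Itgb1, Itgb7 and Itgax of the 9 genes. They are written 5′ to 3′ on the strand of the gene. Capitals mark a GC box (GGGCGG or CCGCCC) and a RUNX core (TGTGGT or ACCACA), each searched on both strands. A TCF core (CTTTGA or TCAAAG) was searched in the same way. The windows are chr2:79255176-79255425 on the plus strand for Itga4, chr8:128685404-128685653 on the plus strand for Itgb1 and chr15:102231936-102232185 on the minus strand for Itgb7.
Itga4: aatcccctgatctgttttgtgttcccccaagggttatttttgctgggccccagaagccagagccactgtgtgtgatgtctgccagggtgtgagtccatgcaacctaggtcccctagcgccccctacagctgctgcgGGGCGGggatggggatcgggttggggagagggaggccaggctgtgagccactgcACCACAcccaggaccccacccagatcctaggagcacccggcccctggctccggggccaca
Itgb1: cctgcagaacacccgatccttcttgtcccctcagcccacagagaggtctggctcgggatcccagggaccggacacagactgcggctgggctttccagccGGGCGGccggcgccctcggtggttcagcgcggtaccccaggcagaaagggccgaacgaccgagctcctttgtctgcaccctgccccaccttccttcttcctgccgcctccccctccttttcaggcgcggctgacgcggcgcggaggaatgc
Itgb7: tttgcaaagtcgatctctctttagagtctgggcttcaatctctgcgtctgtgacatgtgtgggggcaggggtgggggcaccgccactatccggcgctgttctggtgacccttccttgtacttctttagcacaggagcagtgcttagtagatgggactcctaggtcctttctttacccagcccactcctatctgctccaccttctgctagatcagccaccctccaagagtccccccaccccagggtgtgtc
The Itga4 window held 1 GC box and 1 RUNX core, the Itgb1 window 1 GC box, and the Itgb7 window none of the searched letters. No TCF core was found in these 3 windows. Of 32841 promoter windows of the same length, 32.8% held the GC box, 14.1% the RUNX core and 13.8% the TCF core. The windows held 6, 21 and 5 CG dinucleotides. These matches are a description of letters and not of binding.

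The values come from cells with at least 1000 UMIs (unique molecular identifiers, one per captured transcript), 500 genes and at most 10% mitochondrial UMIs that held at least 1 UMI of a CD3 gene (Cd3d, Cd3e, Cd3g) and 1 of a CD8 gene (Cd8a, Cd8b1). They were 8153 KO, 8966 WT, 8252 Aged and 9803 Young cells of 38519 barcodes in all, and 93.0% (Young) to 96.9% (KO) of the kept cells. Library totals ran from 68017515 UMIs (Young) to 85401443 UMIs (WT), and the median cell held 6870 UMIs (KO), 6341 (WT), 5768 (Aged) and 4510 (Young). Levels are given as counts per 1000000 UMIs (CPM). Cd3e stood at 488.1 to 985 CPM and Cd8a at 600.1 to 846.3 CPM in the chosen cells, which the rule itself requires, so these levels are no check of the T cell label. KO and WT were made with a 3′ kit and Aged and Young with an immune profiling kit, so levels were compared only within a pair. In the chosen cells, KO and WT shared 16 barcodes and Aged and Young 114. Bfar, the gene named in the KO label, stood at 22.4 CPM (KO) and 32.1 CPM in WT (ratio 0.697, 0.654 to 0.743), and the sources used here do not say which part of the gene was deleted, so counts at its 3′ end check little. Transcripts of other cells were also present. Summed dendritic cell markers (8 genes, led by Cd74, of which 1 was at 0 in Aged) stood at 218 CPM (KO), 207 CPM (WT), 763 CPM (Aged) and 3290 CPM (Young), and summed fibroblast markers (5 genes, none at 0) at 45.6, 277, 17.6 and 48.9 CPM. Without the 8% of cells with the highest totals, where doublets gather, the dendritic sums were 58.0, 74.4, 129.2 and 324.7 CPM. Many levels and ratios are given again without the cells that held any UMI of another lineage, a step chosen after seeing the data. It can also take T cells, deep ones more easily, since 1 UMI of the unthinned counts is enough. The endothelial list, led by Pecam1, was higher in cells with a Tcf7 UMI than in those without. Its sums were 28.4 against 19.2 CPM (KO), 25.9 against 12.9 (WT), 23.7 against 14.3 (Aged) and 21.0 against 17.0 (Young). The similarities between genes and the medians and counts over named lists rest on all chosen cells. The removal leaves 5636 KO, 5920 WT, 5347 Aged and 6597 Young cells and dendritic sums of 22.2 to 30.1 CPM.

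Between Aged and Young the family split. Itga4 was 2.88 times as high in Aged (2.77 to 2.99), Itgae was 0.198 times (0.1797 to 0.2177) and Itgb1 0.617 times (0.601 to 0.633) as high, and Itgal and Itgb2 lay within 1.05 times of Young. A level counts here as past the threshold when it is at least 1.5 times higher or lower. All 9 genes were measured in this pair (at least 20 UMIs over both libraries and 10 CPM in 1), 1 was past the threshold higher and 2 lower. Of the 2 lower, Itgae (7.97 CPM in Aged) passed the minimum of 10 CPM only through Young, so it had to be lower. Itgb1 is the other. Over the 7938 genes measured, 2.62% were higher and 3.83% lower by as much. The median log2 ratio was -0.20 over the 9 genes and 0.08 over all genes. Between KO and WT the differences were smaller. Of the 8 genes measured there, none was past the threshold in either direction, against 0.607% of 7415 genes higher and 3.09% lower, and the median log2 ratio was 0.13 against -0.05 over all genes. Itgb1 was furthest above WT (1.40 times, 1.38 to 1.43) and Cdh1 furthest below (0.756 times, 0.718 to 0.797).

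**Figure D1:**
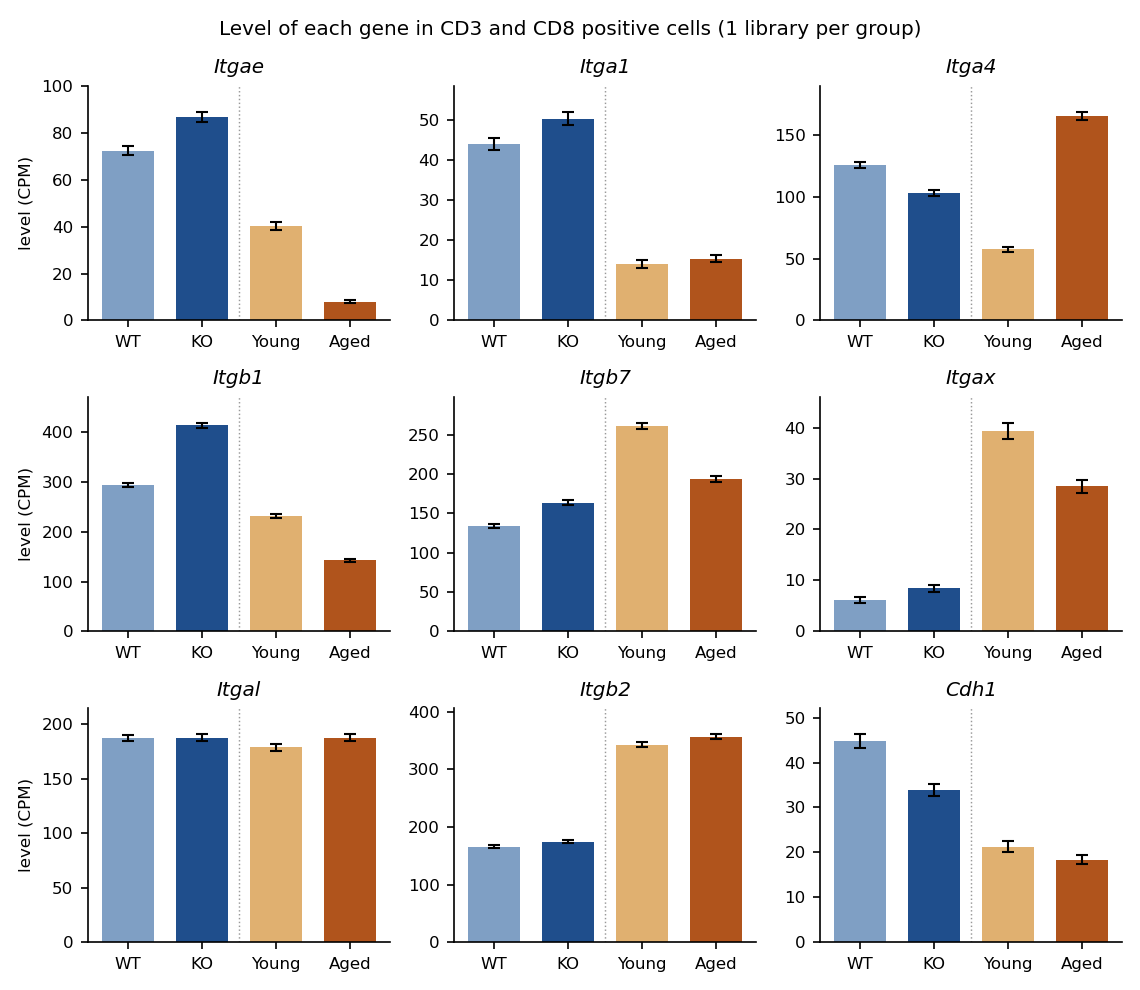
Level of each gene in CPM (linear axis from 0) in the CD3 and CD8 positive cells of the WT, KO, Young and Aged libraries, 1 bar per library, with exact Poisson 95% intervals of counting error. Within the pairs, Itgae at 7.97 CPM in Aged against 40.2 CPM (Young) and Itga4 at 165.7 against 57.6 CPM stand apart, while Itgal is at 187.6 against 187.1 CPM (KO, WT) and 187.5 against 178.7 CPM (Aged, Young).

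Itgae encodes αE, the chain of tissue residency, and lies on chromosome 11 at 73090583 to 73147446 of the plus strand (GRCm38, 31 exons in its longest coding transcript). Its level was 86.9 CPM (KO), 72.5 CPM (WT), 7.97 CPM (Aged) and 40.2 CPM (Young). Aged was the library with little of it, and KO stood 1.198 times as high as WT (1.155 to 1.243). Its share of cells with a UMI, after every cell was thinned to 2000 UMIs so that depth was equal, was 12.9% (KO), 12.6% (WT), 0.907% (Aged) and 4.18% in Young (27.8%, 26.8%, 2.33% and 8.02% unthinned). Thinning left out the cells below 2000 UMIs, which numbered 45 (KO), 80 (WT), 201 (Aged) and 611 (Young). With the combinations of Tcf7, Gzma and Havcr2 status weighted equally the KO to WT difference turned, to a log2 ratio of -0.07. The share in KO was 1.03 times that in WT (0.942 to 1.12), and the share in Aged 0.217 times that in Young (0.167 to 0.279).

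Cells that carried mainly tumour and fibroblast transcripts served as a background of free RNA for these shares. Such cells may express a gene themselves, Itgb1 or Cdh1 for instance. Before thinning their median was 49672 UMIs (KO), 37405 (WT), 24461 (Aged) and 19836 (Young), above that of the T cells. Thinning can thus dilute free RNA more in them, so these cells may understate it. They numbered 41 (KO), 216 (WT), 134 (Aged) and 205 (Young) at 2000 UMIs or more, and Itgae had a UMI in 1 of the 41 KO cells (2.44%). In the others it had none. A count of 0 is read here as allowing 3 cells of the total, a share of up to 1.39% (WT), 2.24% (Aged) and 1.46% (Young). The Aged share of 0.907% lies under its limit, so in Aged Itgae could not be told from background at this depth.

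Dendritic cell transcripts moved with Itgae in the Young library. The 627 Young cells with 2 or more UMIs of dendritic markers stood at 160.5 CPM of Itgae, and the other 9176 at 17.5 CPM. In Aged, 417 such cells stood at 49.1 CPM and the other 7835 at 3.22 CPM. Without cells that held any other-lineage UMI, Itgae was at 3.93 CPM (Aged) and 18.2 CPM (Young), a ratio of 0.216 (0.178 to 0.260). The ratio of Aged to Young was thus close to that over all chosen cells, at lower levels in both libraries. In the other pair the same step gave 84.3 CPM (KO) and 81.3 CPM in WT (1.04, 0.989 to 1.09).

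Itga1 encodes the collagen-binding α1 chain (chromosome 13, 114953096 to 115101964, minus strand, 29 exons). It stood at 50.4 CPM (KO) and 44.2 CPM in WT (1.14, 1.087 to 1.196) and at 15.5 CPM (Aged) and 14.0 CPM in Young (1.101, 1.004 to 1.207). Both ratios were close to 1. The thinned shares were 8.71% (KO), 8.18% (WT), 3.13% (Aged) and 3.05% (Young). The background shares were 2.44%, 3.70%, 0.746% and 0.976%. The intervals of the KO, Aged and Young backgrounds (up to 12.9%, 4.09% and 3.48%) reached over the T cell shares of these libraries.

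Itga4 encodes α4, the alpha chain of VLA-4 and of the gut-homing receptor (chromosome 2, 79255426 to 79333123, plus strand, 28 exons). It stood at 103 CPM (KO), 125.7 CPM (WT), 165.7 CPM (Aged) and 57.6 CPM (Young). The Aged level was nearly triple the Young one, and KO was at 0.820 times WT (0.795 to 0.846). Thinned shares were 16.1% (KO), 20.8% (WT), 24.0% (Aged) and 6.91% (Young), and 1.85% of the WT background cells (4 of 216). The other backgrounds held none, which allows up to 7.32% (KO), 2.24% (Aged) and 1.46% (Young). The share in Aged was 3.47 times that in Young (3.17 to 3.80), and 3.97 times (3.52 to 4.48) without cells holding any other-lineage UMI. On the same cells the levels were 160.1 CPM (Aged) and 42.4 CPM in Young (3.78, 3.56 to 4.01). The 627 Young cells with 2 or more dendritic UMIs held 125.2 CPM of Itga4 and the others 44.9 CPM.

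Itgb1 encodes β1, the partner of α1 and α4 (chromosome 8, 128685654 to 128733200, plus strand, 16 exons). It stood at 413 CPM (KO), 294.4 CPM (WT), 142.8 CPM (Aged) and 231.5 CPM (Young). KO was above WT and Aged below Young. Thinned shares were 47.8% (KO), 39.8% (WT), 24.6% (Aged) and 34.3% (Young), and the background ones 14.6%, 6.02%, 0.746% and 2.44%. Without cells holding any other-lineage UMI the KO level was 1.31 times that of WT (1.28 to 1.34) and the Aged level 0.597 times that of Young (0.576 to 0.618). Summed regulatory T cell markers (3 genes, none at 0) moved with it in KO, at 324 CPM against 220.1 CPM (WT). Without cells holding a Foxp3 UMI the log2 ratio of Itgb1 was 0.50, against 0.49 over all chosen cells. That step took out only 123 KO and 79 WT cells, and Ikzf2 led the marker sum in both. It could thus move the ratio little, and whether the markers and Itgb1 are linked was not tested.

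Itgb7 encodes β7, the partner of αE and α4 (chromosome 15, 102215995 to 102231944, minus strand, 15 exons). It stood at 163.7 CPM (KO) and 134.2 CPM in WT (1.22, 1.19 to 1.25), and at 193.6 CPM (Aged) and 260.9 CPM in Young (0.742, 0.725 to 0.760). Its direction in both pairs was that of Itgb1, and the Itgb7 ratio was past the 1.5 threshold in neither pair. The thinned shares were 26.0%, 23.5%, 31.1% and 41.0% in the same order. Background cells gave 15.7% (Aged) and 8.29% (Young), 2.78% (WT), and 0 of 41 (KO), which allows up to 7.32%.

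The β2 family showed little difference within pairs. Itgb2 (chromosome 10, 77530252 to 77565708, plus strand) stood at 174.5 CPM (KO) and 165.9 CPM in WT (1.05, 1.03 to 1.08) and at 356.3 CPM (Aged) and 342.4 CPM in Young (1.04, 1.02 to 1.06). Itgal (chromosome 7, 127296260 to 127335138, plus strand) stood at 187.6 and 187.1 CPM (1.00, 0.979 to 1.03) and at 187.5 and 178.7 CPM (1.05, 1.02 to 1.08). Without cells holding any other-lineage UMI the ratios fell to the other side of 1, at 0.989 and 0.981 for Itgb2 and 0.917 and 0.979 for Itgal. LFA-1 chains were frequent everywhere, with thinned Itgal shares of 30.9% (KO) to 33.0% (WT) and Itgb2 shares of 27.6% (KO) to 48.8% (Young), against at most 7.32% and 4.88% in background cells. Itgax (chromosome 7, 128129547 to 128150657, plus strand) was too low in KO and WT to count as measured, at 8.43 and 6.12 CPM, and stood at 28.5 CPM (Aged) and 39.3 CPM in Young (0.724, 0.681 to 0.770). The Young cells with dendritic transcripts held 80.2 CPM of Itgax against 31.5 CPM in the others, and without cells holding any other-lineage UMI the Aged to Young ratio was 0.909 (0.833 to 0.992). Itgax shares were 1.78% (KO) and 1.27% (WT), under the limits that 0 background cells allow (7.32% and 1.39%), and 5.97% (Aged) and 6.30% (Young).

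Cdh1 encodes E-cadherin, the ligand of αEβ7 (chromosome 8, 106603351 to 106670246, plus strand, 16 exons). Epithelial cells are its usual source, yet it was also counted in the T cells, where it stood at 33.9 CPM (KO), 44.8 CPM (WT), 18.4 CPM (Aged) and 21.3 CPM (Young). The other kept cells of the same libraries held no CD3 or CD8 UMI or lacked 1 of them. They had less Cdh1 in each library, at 7.17 CPM (KO), 7.07 CPM (WT), 8.76 CPM (Aged) and 12.2 CPM (Young). The share of T cells with a UMI was 6.35% (KO) and 9.17% (WT), a ratio of 0.693 (0.619 to 0.774). The background share was 2.78% in WT and 0 of 41 cells in KO, which allows up to 7.32%. The KO share lies under that limit, so by this measure it could not be told from background. Without cells holding any other-lineage UMI the level was 38.6 CPM (KO) and 54.2 CPM in WT (0.713, 0.668 to 0.760). Summed tumour or epithelial markers (5 genes, led by Krt8) stood at 114 CPM (KO) and 346 CPM (WT) before that step, and the difference in Cdh1 was as large after it.

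**Figure D2:**
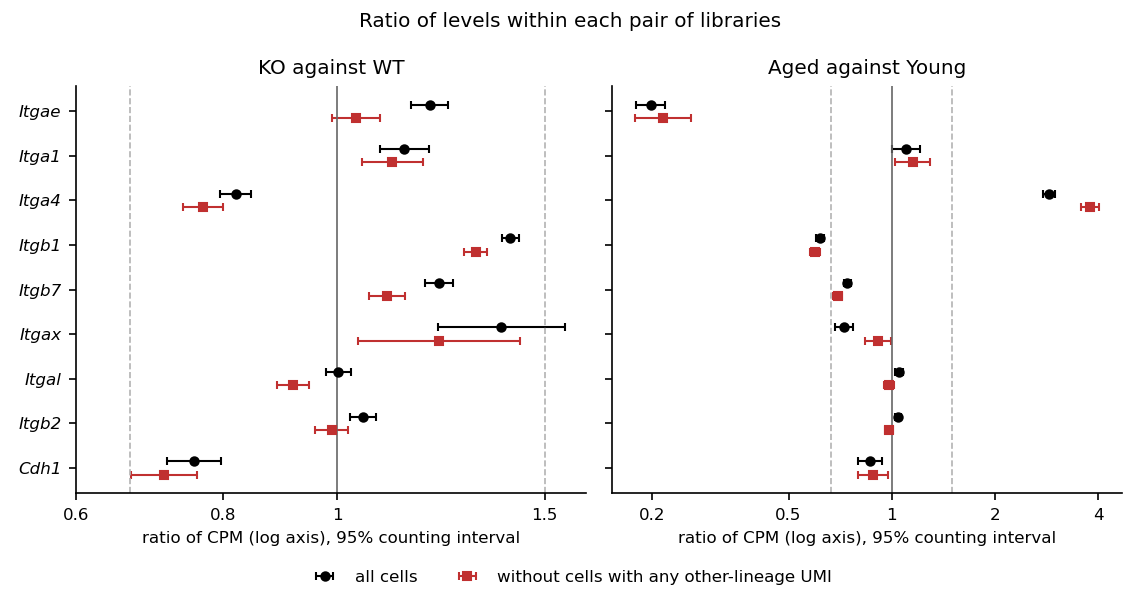
Ratio of CPM, KO to WT and Aged to Young, for each gene on a log axis, with exact 95% counting intervals; circles are all CD3 and CD8 positive cells and squares those without any UMI of another lineage. Dashed lines mark 1.5-fold. Itga4 moved from 2.88 to 3.78 and Itgax from 0.724 to 0.909 in Aged against Young, and Itgae from 1.198 to 1.04 in KO against WT.

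Detection of an alpha chain was set against that of its beta chain in the same thinned cell, since 1 chain alone makes no receptor. Itgae and Itgb7 were found together in 5.46% of KO cells, 4.31% of WT, 0.348% of Aged and 2.24% of Young cells. Cells with Itgae held Itgb7 more often than cells without it, beyond counting error in KO, WT and Young. In KO 42.3% of Itgae positive cells (39.3 to 45.3) held Itgb7, against 23.6% of the negative ones (22.6 to 24.6). In WT the shares were 34.2% and 21.9%, and in Young 53.7% and 40.5%. In Aged they were 38.4% and 31.1%, and the first rests on 28 of 73 cells (27.2 to 50.5), so the intervals overlapped there. Without cells holding any other-lineage UMI the Young shares were 67.0% (59.8 to 73.8) and 41.2%.

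The α4 chain went the other way with both of its partners. Itga4 positive cells held Itgb7 less often than negative ones in all 4 libraries, with 18.0% against 27.5% (KO), 18.9% against 24.7% (WT), 26.8% against 32.5% (Aged) and 31.0% against 41.8% (Young). They also held Itgb1 less often, with 41.9% against 48.9% (KO), 35.7% against 40.8% (WT), 21.8% against 25.5% (Aged) and 31.5% against 34.5% (Young). In Young the last pair of intervals overlapped (27.9 to 35.3 and 33.5 to 35.5). Both chains of an α4 receptor were nonetheless found together more often in Aged than in Young, at 6.43% against 2.14% with Itgb7 (3.00 times, 2.54 to 3.56) and at 5.22% against 2.18% with Itgb1 (2.40 times, 2.02 to 2.85). The single shares multiplied differ much alike, at 7.47% against 2.83% with Itgb7 and 5.90% against 2.37% with Itgb1. The joint shares thus largely restate the higher Itga4 share in Aged and are no separate finding on pairing.

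The beta chains beside α4 were then counted in the Itga4 positive cells. Of those cells, 32.7% (KO) and 27.3% (WT) held Itgb1 without Itgb7, and 8.83% and 10.5% Itgb7 without Itgb1. In Young the shares were alike, at 21.7% (18.6 to 25.2) and 21.3% (18.1 to 24.7). In Aged 15.2% (13.6 to 16.9) held Itgb1 alone, below the Young interval, and 20.3% (18.5 to 22.1) Itgb7 alone, which overlaps it. Over all thinned cells Itgb1 was likewise in a smaller share of Aged than of Young cells (24.6% against 34.3%), and whether the Itga4 positive cells differ in this from the rest was not tested. At 2000 UMIs 47.2% to 58.0% of these cells held neither, so a missing chain says little of a single cell.

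For the other pairs the shares were closer than for Itgae with Itgb7 in the same library. Among them, only for Itgal with Itgb2 did the intervals of both shares stay apart in all 4 libraries. Itgal positive cells held Itgb2 in 30.9% against 26.2% of negative cells in KO, 31.0% against 26.1% (WT), 50.6% against 45.6% (Aged) and 51.3% against 47.6% (Young). Itga1 positive cells held Itgb1 in 54.7% against 47.1% (KO), and the intervals of both shares overlapped in WT, Aged and Young. For Itgax with Itgb2 they overlapped in all 4 libraries. Without cells holding any other-lineage UMI, the Itgal with Itgb2 intervals overlapped in Aged (49.3% against 45.7%) and Young (51.2% against 47.8%). Those of Itga1 with Itgb1 then overlapped in KO as well (52.3% against 47.6%). Of all 36 pairs among the 9 genes, 21 had the second gene in a larger share of the cells with the first than of those without it in all 4 libraries, by as little as 0.02 percentage points. For 3 pairs the share was smaller in all 4, and all 3 hold Itga4 (with Itgb1, Itgb7 and Cdh1). Pairs of other genes were not counted in this way, so nothing is read from the 21.

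**Figure D3:**
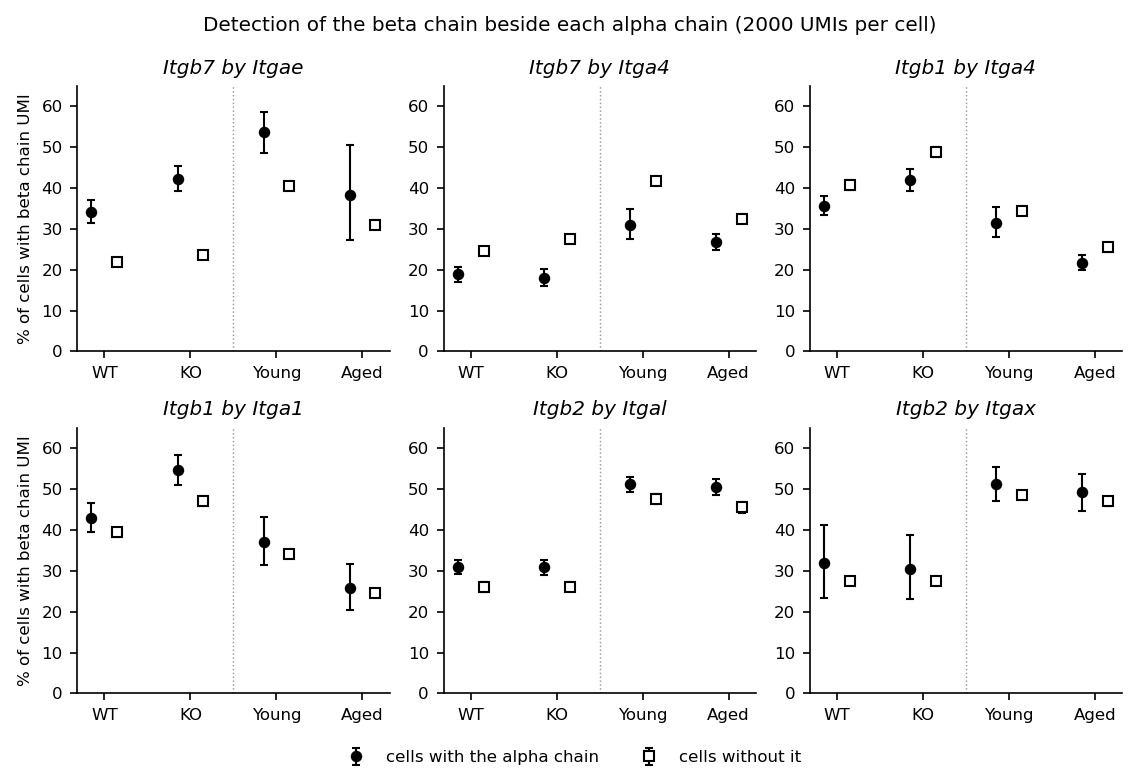
Percent of cells with a UMI of the beta chain among cells with (filled circles) and without (open squares) a UMI of the alpha chain, for 6 pairs of chains in 4 libraries, each cell thinned to 2000 UMIs, with exact binomial 95% intervals. Itgb7 was more frequent beside Itgae in all 4 libraries (42.3% against 23.6% in KO) and less frequent beside Itga4 (18.0% against 27.5% in KO).

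Cells were then divided by 3 genes of CD8+ T cell state, each counted as positive with at least 1 UMI in the thinned cell. Tcf7 encodes a transcription factor of memory and progenitor cells, Gzma the protease granzyme A of cytotoxic cells, and Havcr2 the inhibitory receptor TIM-3 of exhausted cells. Tcf7 positive cells made up 16.1% of KO, 15.7% of WT, 15.1% of Aged and 22.3% of Young cells. The Gzma shares were 8.95%, 7.62%, 6.81% and 11.0%, and the Havcr2 shares 9.97%, 10.0%, 16.1% and 7.92%. A cell below these counts may still express the gene, so the negative cells are a mixture.

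Tcf7 positive cells held more of both β1 and β7 in all 4 libraries, and less β2 in KO, WT and Aged. Itgb1 stood at 567 CPM in positive and 386.7 CPM in negative KO cells, a ratio of 1.47 (1.42 to 1.51), and its ratio was 1.59 (WT), 1.76 (Aged) and 1.30 (Young). Itgb7 had ratios of 1.22, 1.35, 1.39 and 1.28, and Itgb2 of 0.794, 0.763, 0.755 and 0.972 in the same order. Itga4 was lower in the Tcf7 positive cells of Aged (104.7 against 173.9 CPM) and Young (41.9 against 61.3 CPM). It was close to level in KO (108.2 against 102.2 CPM) and slightly higher in WT (138.9 against 123.3 CPM, 1.13, 1.06 to 1.19). Without cells holding any other-lineage UMI no Itga4 interval lay above 1. Itgae was lower in Tcf7 positive cells of Young (27.4 against 43.6 CPM), beside dendritic sums of 1435 against 3753 CPM. Among cells without any other-lineage UMI it was at 18.0 against 18.5 CPM. In WT Itgae was higher in Tcf7 positive cells (90.6 against 69.7 CPM, 1.30, 1.21 to 1.40), and in KO close to level (1.01). In Aged it was lower at low levels (5.46 against 8.34 CPM, 0.654, 0.467 to 0.895). Without cells holding any other-lineage UMI its ratios over the 4 libraries were 0.976 to 1.09, and every interval included 1.
In counts past the 1.5 threshold, KO had none of 8 measured genes higher (0.930% of all genes) and none lower (3.81%). WT had 1 of 8 higher, Itgb1 (1.52%), and none lower (8.11%). Aged had 1 of 8 higher, again Itgb1 (2.58%), and 2 lower, Itga4 and Itga1 (7.11%). Young had none of 9 higher (0.723%) and 1 lower, Itgae (5.21%).

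Gzma positive cells held more Itga1 and Itgax in all 4 libraries. Itga1 stood at 91.2 against 46.8 CPM in KO (1.95, 1.78 to 2.14), 95.2 against 40.0 CPM in WT (2.38), 23.3 against 14.7 CPM in Aged (1.58) and 21.5 against 12.8 CPM in Young (1.67). Itgax stood at 22.8 against 7.11 CPM in KO (3.21), 14.9 against 5.41 CPM in WT (2.76), 50.6 against 26.9 CPM in Aged (1.88) and 66.8 against 35.8 CPM in Young (1.87). Cdh1 had ratios of 1.70 (KO), 1.78 (WT), 0.816 (Aged) and 0.769 (Young), and whether the pairs of libraries differ was not tested. Itgae was higher in the Gzma positive cells of KO (119.1 against 83.8 CPM) and WT (124.7 against 68.2 CPM). In Young it was at 41.2 against 40.5 CPM in all cells, and at 34.7 against 16.1 CPM (2.15, 1.76 to 2.61) without cells holding any other-lineage UMI.
Past the threshold, KO had 3 of 9 genes higher (1.58% of all genes), WT 4 (1.49%), Aged 3 (1.10%) and Young 2 (0.945%). None was lower, against 3.58% of all genes in KO, 4.12% (WT), 1.71% (Aged) and 4.05% (Young). Itgax passed the minimum of 10 CPM in KO and WT only through the Gzma positive cells, so there it had to differ, and without it the counts were 2 of 8 (KO) and 3 of 8 (WT). The 3 in KO were Itga1, Itgax and Cdh1, to which WT added Itgae. In Aged they were Itga1, Itgax and Itgb7 (283 against 187.7 CPM, 1.51), and in Young Itga1 and Itgax.

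Havcr2 positive cells were close to a mirror image of the Tcf7 positive ones for the beta chains. Itgb1 had ratios of 0.739 (KO), 0.628 (WT), 0.655 (Aged) and 0.797 (Young), Itgb7 of 0.712, 0.858, 0.853 and 0.781, and Itgb2 of 1.30, 1.44, 1.17 and 1.09. Itga4 was higher in the positive cells of all 4, at 118.2 against 101.3 CPM in KO (1.17), 159.5 against 121.5 CPM in WT (1.31), 198.4 against 158 CPM in Aged (1.26) and 99.4 against 52.8 CPM in Young (1.88). In Young this and the Itgae level of 120.6 against 31.3 CPM (3.86, 3.54 to 4.21) went with dendritic markers, whose sum was 12057 CPM in the Havcr2 positive and 2304 CPM in the negative cells. Without cells holding any other-lineage UMI, Young Itga4 was at 38.2 against 42.7 CPM (0.893, 0.717 to 1.101) and Itgae at 12.5 against 18.9 CPM (0.660, 0.444 to 0.947), while Itga4 stayed higher in KO (1.22), WT (1.32) and Aged (1.33).
Past the threshold, KO had none of 8 genes higher (2.09% of all genes) and none lower (1.37%). WT had none of 8 higher (2.26%) and 1 lower, Itgb1 (3.25%), and Aged none of 8 higher (2.30%) and 1 lower, also Itgb1 (1.19%). Young had 3 of 9 higher, Itgae, Itgax and Itga4 (6.33%), and none lower (2.51%), and none of the 3 was 1.5 times higher without cells holding any other-lineage UMI.

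**Figure D4:**
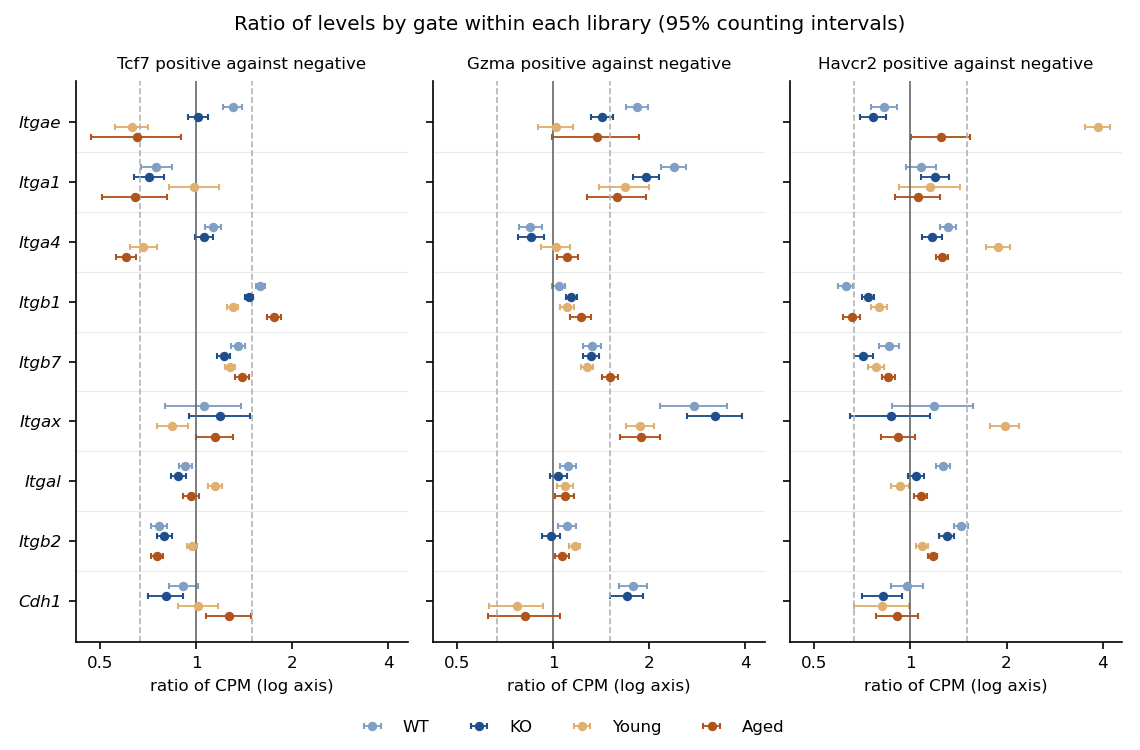
Ratio of CPM in cells positive for Tcf7, Gzma or Havcr2 to that in negative cells, for each gene and library, on a log axis with exact 95% counting intervals; dashed lines mark 1.5-fold. Itgb1 lies above 1 for Tcf7 (1.30 to 1.76) and below 1 for Havcr2 (0.628 to 0.797) in all 4 libraries, and Itgae in Havcr2 positive Young cells stands apart at 3.86.

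The 3 genes together give 8 kinds of cell, of which 6 held at least 50 cells in both Aged and Young and 7 in both KO and WT. Itga4 was higher in Aged than in Young in 6 of 6 (ratios 1.77 to 3.16), and Itgae and Itgb1 lower in 6 of 6 (Itgb1 0.537 to 0.806). Among cells positive for Tcf7 and Havcr2 and negative for Gzma, Itgae had 0 UMIs in 85 Aged cells and 98 UMIs in 101 Young cells, and elsewhere its ratio was 0.0648 to 0.588. Itgb7 was also lower in 6 of 6 (0.749 to 0.967). In KO against WT, Itgb1 was higher in 7 of 7 (1.14 to 2.02) and Itga4 lower in 7 of 7 (0.518 to 0.906), while Itgae went both ways (0.628 to 1.30). The Havcr2 positive Young cells also held the most dendritic transcripts (12057 against 2304 CPM in the negative ones). Among cells without any other-lineage UMI, Itga4 was higher in Aged in 6 of 6 (2.98 to 16.9, the highest on 3 Young UMIs) and Itgae lower in 6 of 6. The gate with 0 Aged UMIs of Itgae then held 2 in Young, so it shows no difference, and elsewhere the ratio was 0.222 to 0.307. Itgb1 was lower in 6 of 6 (0.572 to 0.798) and Itgb7 in 6 of 6 (0.679 to 0.893). For KO and WT 4 kinds of cell were left, with Itgb1 higher in 4 of 4 (1.22 to 1.76), Itga4 lower in 4 of 4 (0.726 to 0.896) and Itgae at 0.708 to 1.09.

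T cell receptor V beta segments gave a further division. Leading segments with at least 50 cells in each library numbered 16 in Aged and Young. Itga4 was higher in Aged in 15 of 16, with a median ratio of 3.40. The exception was Trbv5, at 38.2 CPM (Aged) and 42.5 CPM in Young (0.898, 0.529 to 1.54), and the highest ratio was that of Trbv2 (8.50, 5.22 to 14.7). In the most frequent Aged segment, Trbv12-1 (24.9% of Aged and 12.6% of Young cells), the Itga4 ratio was 2.72 (2.40 to 3.08). Itgae was lower in Aged in 16 of 16 segments (0.0554 to 0.732) and Itgb1 in 16 of 16 (0.410 to 0.956). In KO and WT 79.3% and 80.1% of cells held no V beta UMI, and over the 10 segments with enough cells Itgb1 was higher in KO in 9. Itga4 went both ways over these segments, higher in KO in 4 of 10 (0.447 to 1.40). So did Itgae, also higher in 4 (0.508 to 2.20, median 0.862). In cells without any other-lineage UMI, Itga4 was higher in Aged in 16 of 16 (1.36 to 16.8), and Trbv5 stood at 1.65 (0.672 to 4.63). Itgb1 was lower in Aged in 16 of 16 (0.413 to 0.952) and Itgae in 14, with Trbv13-2 (1.77, 0.925 to 3.27) and Trbv17 (1.34, 0.360 to 6.09) above 1. The second rests on 8 Aged and 4 Young UMIs. For KO and WT 5 segments were left, and Itgb1 was higher in KO in 5. Itga4 was then higher in KO in 1 (0.502 to 1.84) and Itgae in 2 (0.504 to 1.37).

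**Figure D5:**
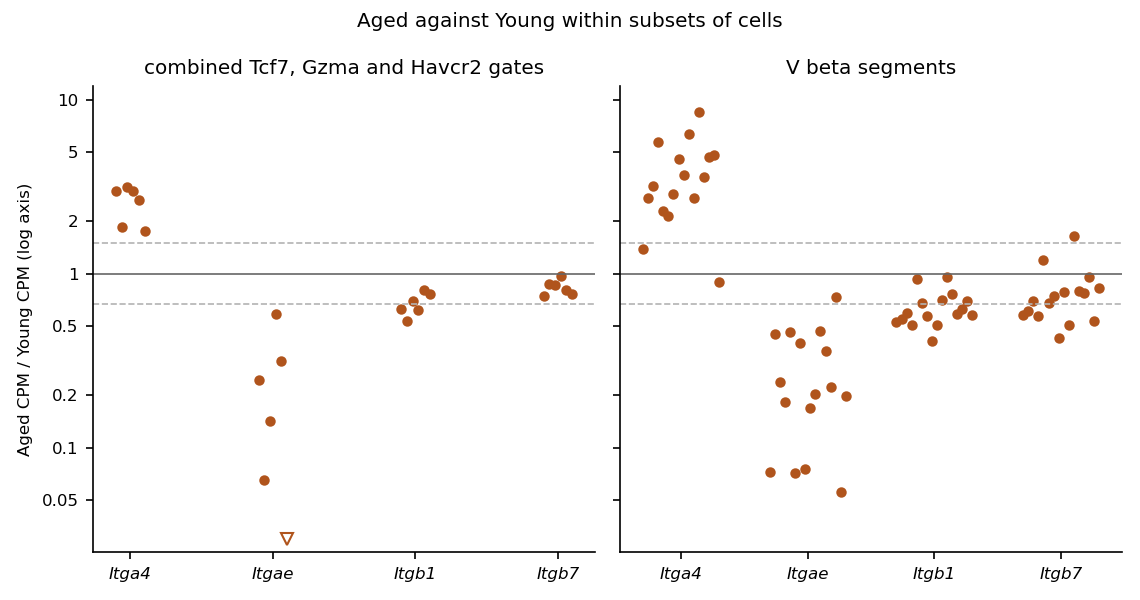
Ratio of Aged to Young CPM (log axis) of Itga4, Itgae, Itgb1 and Itgb7 within 6 combined gates (left) and 16 V beta segments (right) of all chosen cells, other-lineage cells included, 1 point per subset. The open triangle at the lower edge marks the gate with 0 Aged UMIs of Itgae, and dashed lines mark 1.5-fold. Itga4 lies above 1 in 6 of 6 gates and 15 of 16 segments, and Itgae below 1 in all of them.

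Across the kinds of cell with at least 50 cells in a library (27 points over 4 libraries, each centred on its library), the genes with the most similar levels were listed for each of the 9 among 4781 genes. The points share libraries and the 3 dividing genes, so the correlations are a description. Itgb1 was most like S1pr1, the receptor of egress from tissue (Pearson r 0.957), and Smad7, an inhibitor of TGF-beta signalling (0.944). Itgb2 was most like Pgk1 (0.927) and Eno1 (0.908), enzymes of glycolysis, and Cxcr6 (0.912), a chemokine receptor of resident T cells. Itgb7 was most like Ly6c2 (0.887) while the closest genes to Itgae (Etv3, 0.822), Itga1 (Pik3ap1, 0.818), Itgax (Lgals3, 0.810), Itgal (Ppp3ca, 0.7997), Itga4 (Ucp2, 0.777) and Cdh1 (Crkl, 0.715) were less alike. Among the 9 genes, Itgb1 went with Itgb7 (0.772) and against Itgb2 (-0.803).

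Other genes of adhesion were counted from named lists, beside 0.607% of all genes higher and 3.09% lower in KO against WT and 2.62% and 3.83% in Aged against Young. Of 18 other integrin chains, 4 were measured in KO and WT, with none higher and 1 lower (Itga6, the laminin-binding α6, 23.7 against 35.7 CPM, 0.664, and 19.8 against 18.8 CPM without cells holding any other-lineage UMI), and 3 in Aged and Young, all between the thresholds, with Itgb3 highest (1.42). Of 22 genes of integrin activation and linkage to actin, 19 were measured in KO and WT, none higher and 2 lower, Fermt1 (kindlin-1, 2.89 against 12.4 CPM) and Vcl (vinculin, 7.21 against 12.4 CPM). In Aged and Young 18 were measured and all lay between the thresholds. Of 8 ligands, 5 were measured in KO and WT and 4 of them were lower in KO, namely Vcam1 (0.308), Fn1 (0.355), Thbs1 (0.250) and Spp1 (0.562), while Icam1 stood at 1.33. In Aged and Young 3 of 4 measured ligands were lower in Aged, Fn1 (0.398), Thbs1 (0.535) and Spp1 (0.552). Fermt1, Vcl, Vcam1 and Thbs1 passed the minimum of 10 CPM only through WT, and Fn1 and Thbs1 only through Young in the other pair, so those genes had to be lower. Summed fibroblast markers differed in the same direction (45.6 against 277 CPM in KO and WT, 17.6 against 48.9 CPM in Aged and Young), as did tumour or epithelial markers (114 against 346 CPM in KO and WT). Once cells with any other-lineage UMI were removed, Fermt1, Vcam1, Fn1 and Thbs1 were at 1.35 CPM or less in all 4 libraries. Vcl then stood at 4.69 CPM (KO) and 4.44 CPM (WT), and Spp1 at 7.96 CPM (KO) against 4.97 CPM in WT (1.60) and at 8.17 CPM (Aged) against 8.66 CPM in Young (0.943).

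Of 13 genes of residency and egress, 11 were measured in each pair. In KO 1 was lower, Klf2 (a factor that keeps T cells in circulation, 152.7 against 247.6 CPM, 0.617), and none higher. Of all genes, 3.09% were lower and 0.607% higher by the threshold in this pair. In Aged Prdm1 (a factor of residency, 21.9 against 14.3 CPM, 1.53) was higher and Ahr (a factor of tissue T cells, 15.8 against 42.5 CPM, 0.370) lower. The shares of all genes in Aged against Young were 2.62% higher and 3.83% lower. The ratios without cells of other-lineage UMIs were 0.574 (Klf2), 1.35 (Prdm1) and 0.645 (Ahr). Of 9 genes of the TGF-beta response, which is known to induce Itgae, all were measured in both pairs. None was past the threshold over all chosen cells. Smad7 was the lowest of them in Aged (0.683, 0.670 to 0.697) and the highest in KO (1.203, 1.188 to 1.219). Without cells holding any other-lineage UMI its Aged to Young ratio was 0.660 (0.644 to 0.677), past the threshold. Its KO to WT ratio was then 1.18. The median log2 ratios of KO to WT were -0.17 (other chains), 0.04 (activation), -1.43 (ligands), 0.10 (residency) and 0.03 (TGF-beta), beside -0.05 over all genes. Those of Aged to Young were 0.08, 0.02, -0.82, -0.30 and -0.30, beside 0.08 over all genes. Both ligand medians include genes that passed the minimum of 10 CPM only through WT or Young, so the filter itself can lower them. Some genes of other lists passed in the same way.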

How the data were processed

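Per the file headers, the authors' deposited values are whole-number UMI counts of genes in cell barcodes from Cell Ranger, version 6.1.1 (WT, KO) or 7.1.0 (Aged, Young). Seurat 3.2.3, mm10 and another Cell Ranger release (6.0.0) stand in the submitters' processing notes, and which release made the counts was not settled. The sources used here do not state how cells were called or whether intronic reads counted, and the version of the 3′ kit was not settled. Groups came from the labels. UMIs were summed over cells and scaled to CPM, log2 ratios used a pseudocount of 1 CPM, and shares used cells thinned to 2000 UMIs. Poisson, conditional binomial and Clopper-Pearson intervals were exact. Thinning and ratios were tested on simulated data (Python 3.11.15, numpy 2.4.6, scipy 1.17.1, pandas 2.3.3). No doublet caller was run; removing the 8% of cells with the highest totals, or cells with other-lineage UMIs, served as alternatives. Coordinates are from GENCODE (GRCm38). All 9 genes are named; others came from lists, as the highest, the lowest and those past 1.5-fold, or as the 3 most alike. The genes and lists were chosen with earlier results of these data known. Background cells held 10 or more tumour or fibroblast marker UMIs and 10 times as many as of T cell markers.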

Additional observations from a re-analysis of the deposited data

Results flagged for a closer look

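For 3 genes the Aged to Young ratio lay on opposite sides of 1 in Tcf7 positive and Tcf7 negative cells. Itga1 was at 0.7508 in positive and 1.151 in negative cells, Itgal at 0.9108 and 1.084, and Itgb2 at 0.8295 and 1.068. With 1 library per group the difference between the ratios was not tested.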

How the results depend on the processing

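The 3 genes past 1.5-fold in Aged against Young kept their direction in 48 of 48 alternatives and the threshold in 47. Dropping the filter on low counts was among these alternatives and cannot change a ratio, so it could not fail. With the combined gates weighted equally, 1 gene in place of 2 was lower, since Itgb1 stood at a log2 ratio of -0.53. The 5 shares of cells past the threshold kept it in 25 of 25. The number of chain pairs higher in KO went from 0 to 2 when cells were thinned to 1000 UMIs, and of those lower in Aged from 1 to 2 with another random seed. The 22 gate ratios past the threshold kept their direction in 85 of 88 alternatives and the threshold in 69. Over the 4 libraries, genes past the threshold in Tcf7 positive cells numbered 2 higher and 3 lower. With 2 UMIs needed for a gate they numbered 4 and 5, with unthinned counts 4 were higher, and without cells with 2 or more other-lineage UMIs 1 was. In Gzma positive cells 0 genes were lower, and 1 without cells with any other-lineage UMI. In Havcr2 positive cells 3 were higher and 2 lower. With 2 UMIs for a gate they numbered 7 and 8, with unthinned counts 6 were lower, and after either removal of other-lineage cells 0 were higher. Young Itga4 by Havcr2 turned to a log2 ratio of -0.16 without cells with any other-lineage UMI, and Young Itgae to -0.30 without cells with 2 or more such UMIs and -0.56 without any. These removals were chosen after seeing the data. The cause of the other shifts was not tested. No paired analysis was possible because each group holds 1 library. At 2000 UMIs a chain that is expressed is often not counted, and Itgae in Aged, Itgax in KO and WT and Cdh1 in KO lie under the background limit. The background intervals of Itga1 in KO, Aged and Young also reach over its shares. That of Cdh1 in Aged just does (up to 4.088% against a share of 4.086%).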
